A study of Mus musculus with 6 samples.

Results

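The 10 antiviral effector genes described here are Ifit1, Ifit2, Ifit3, Ifit3b, Isg15, Usp18, Oas2, Oasl2, Rsad2 and Bst2, out of 27179 genes in the bulk count table. They were chosen by name as a group of interferon-stimulated genes, with their higher level in cardiomyocytes grown on adult fibroblasts already known. The bulk contrast is therefore given for them as values and errors without p-values, and counts of calls among them are a description. All 10 were found in the bulk table by Entrez identifier and in both single-cell matrices by Ensembl identifier. Cells came from C57BL/6 mice (C57BL/6J in the study's methods). Immature cardiomyocytes (imCMs) of newborn hearts were co-cultured with fibroblasts of the heart, either neonatal (imCM-NF, 2 bulk libraries) or adult (imCM-AF, 2 bulk libraries), and no genetic change or added agent is named in the labels. Per the study's methods the fibroblasts had been passaged, more adult than neonatal fibroblasts were plated per imCM, and imCMs were recovered by sorting. By the same methods, neonatal and adult fibroblasts were isolated by different procedures. The bulk groups thus differ in plating ratio and fibroblast isolation as well as in fibroblast age, and these cannot be told apart. A pair of single-cell libraries, 1 of sorted cardiomyocytes and 1 of sorted fibroblasts, was read on nanowell chips, with a Type name for each well. Whether bulk libraries of a group came from separate cultures is not stated in the labels, so their spread may be technical.

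Interferon-stimulated genes are switched on when interferon binds its receptor and receptor-bound kinases activate transcription factors. These bind a DNA element, the interferon-stimulated response element, built on a repeated GAAA core. The products block viruses at several steps. IFIT proteins bind viral RNA, and ISG15 is a ubiquitin-like modifier that USP18 removes again. OAS proteins sense double-stranded RNA, RSAD2 (viperin) makes a chain-terminating nucleotide, and BST2 (tetherin) holds budding virus particles on the cell surface. In a heart culture these genes can be read in cardiomyocytes and in fibroblasts alike, and what set their level here was not tested.

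Promoters of 8 members were listed in the RefSeq table (GRCm38.p6, the assembly also called mm10), each as 300 bases, 250 before and 50 after a start site. The core of the response element was searched as GAAA, any 2 bases and GAAA, on both strands, and overlapping matches were counted separately. It occurred in 6 of the 8 (75%), in 13 of 33 (39.4%) of the other antiviral genes listed further on, in 3 of 20 (15%) of the signalling genes and in 3.99% of the 27025 genes with a listed promoter. Ifit2, with 2 listed start sites, and Oasl2 held no match in their windows. The stretches with the matches, 8 bases wider at each side, are shown because they let the members that hold it be compared; capitals mark the GAAA repeats or, where the core lies on the other strand, TTTC.

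Ifit1: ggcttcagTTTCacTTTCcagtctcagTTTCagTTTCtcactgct
Ifit3: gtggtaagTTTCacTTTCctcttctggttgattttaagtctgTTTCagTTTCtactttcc
Ifit3b: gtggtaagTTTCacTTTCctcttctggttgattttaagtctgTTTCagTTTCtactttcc
Isg15: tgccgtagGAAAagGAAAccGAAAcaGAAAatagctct
Rsad2: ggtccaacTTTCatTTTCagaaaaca
Bst2: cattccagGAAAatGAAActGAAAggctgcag

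All are written 5′ to 3′ on the strand of the gene. Ifit1 lies at chr19:34640777-34640821, Ifit3 at chr19:34583365-34583424 and Ifit3b at chr19:34607761-34607820, all on the plus strand. Isg15 lies at chr4:156200867-156200904, Rsad2 at chr12:26456555-26456580 and Bst2 at chr8:71537579-71537610, all on the minus strand. The stretches of Ifit3 and Ifit3b were the same over all 60 bases. Isg15 held 3 overlapping matches between 78 and 57 bases before its start site, and the Ifit1 pair lay between 104 and 76 bases before it. A match is a description of letters and not evidence of binding.

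Bulk totals ranged from 9278909 to 12088577 counts. Levels below are TMM-scaled CPM (a gene's count relative to the library total, after scaling between libraries), in the order imCM-NF 1, imCM-NF 2, imCM-AF 1, imCM-AF 2. CPM is not corrected for gene length, so levels are compared between libraries and not between genes. Folds are log2 fold changes of edgeR for imCM-AF over imCM-NF with their standard error (SE, n = 2 libraries per group).

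The IFIT genes sit side by side on chromosome 19. Ifit1 (Entrez 15957, 34640889 to 34650009) stood at 103 and 55.7 CPM on neonatal and at 290 and 335 CPM on adult fibroblasts, from 923, 675, 3180 and 3992 counts. Its log2 fold change was 1.99 ± 0.18, or 3.97-fold. Both imCM-AF libraries lay far above both imCM-NF libraries, and the imCM-NF libraries differed from each other more than the imCM-AF libraries did. Ifit2 (Entrez 15958, 34550550 to 34576534) stood at 55.3 and 34.8 CPM on neonatal fibroblasts and rather closer, at 71.5 and 82.5 CPM, on adult ones. It showed the smallest difference of the members, a log2 fold change of 0.79 ± 0.15 that went down to 0.49 without imCM-NF replicate 2. Ifit3 (Entrez 15959, 34583119 to 34588982) was at 86.6 and 56.2 CPM against 178 and 193 CPM, with an edgeR log2 fold change of 1.39 ± 0.14. Its neighbour Ifit3b (Entrez 667370, 34607530 to 34613403) was at 26.4 and 14.7 CPM against 51.0 and 53.4 CPM, and its log2 fold change was 1.38 ± 0.17. The differences of these neighbours were nearly the same, but their counts are uncertain. Of all stretches of 35 bases in Ifit3 transcripts, the bulk read length, 59.1% also occur in other genes, chiefly Ifit3b, and the share is 52.8% in Ifit3b. For Ifit1 it is 9.47% and for Ifit2 0.0%.

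ISG15 and USP18 act on the same modification. Isg15 (Entrez 100038882, chromosome 4, 156199424 to 156200818) measured 121 and 79.0 CPM on neonatal and 216 and 211 CPM on adult fibroblasts, with a log2 fold change of 1.10 ± 0.14. Usp18 (Entrez 24110, chromosome 6, 121245906 to 121270917) measured 73.7 and 36.1 CPM against 155 and 171 CPM, so that its log2 fold change was 1.59 ± 0.19. For both genes the groups did not overlap, and imCM-NF 1 stood well above imCM-NF 2. Usp18 shares 124 exon bases with Gm44148 on the opposite strand, and the sources do not say if counting used strand.

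Of the OAS genes, Oas2 and Oasl2 both lie on chromosome 5. Oas2 (Entrez 246728, 120730333 to 120749886), an RNA sensor that makes 2-5A, had the lowest counts and the largest difference of the members. It went from 5.23 and 3.88 CPM, 47 counts in each imCM-NF library, to 28.2 and 32.5 CPM, from 309 and 388 counts. The log2 fold change was 2.76 ± 0.17, or 6.78-fold. Oasl2 (Entrez 23962, 114896926 to 114912245), an OAS-like protein with a ubiquitin-like tail, measured 97.8 and 67.4 CPM on neonatal fibroblasts and 147 CPM in each imCM-AF library. Its log2 fold change was 0.84 ± 0.13 and went down to 0.60 without imCM-NF replicate 2.

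Rsad2 (Entrez 58185, chromosome 12, 26442743 to 26456452) measured 47.7 and 28.1 CPM on neonatal and 129 and 136 CPM on adult fibroblasts, and its log2 fold change was 1.83 ± 0.16. Bst2 (Entrez 69550, chromosome 8, 71534255 to 71537472) measured 133 and 101 CPM against 324 and 307 CPM, with a log2 fold change of 1.43 ± 0.12. Neither gene overlapped between groups.

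**Figure D1:**
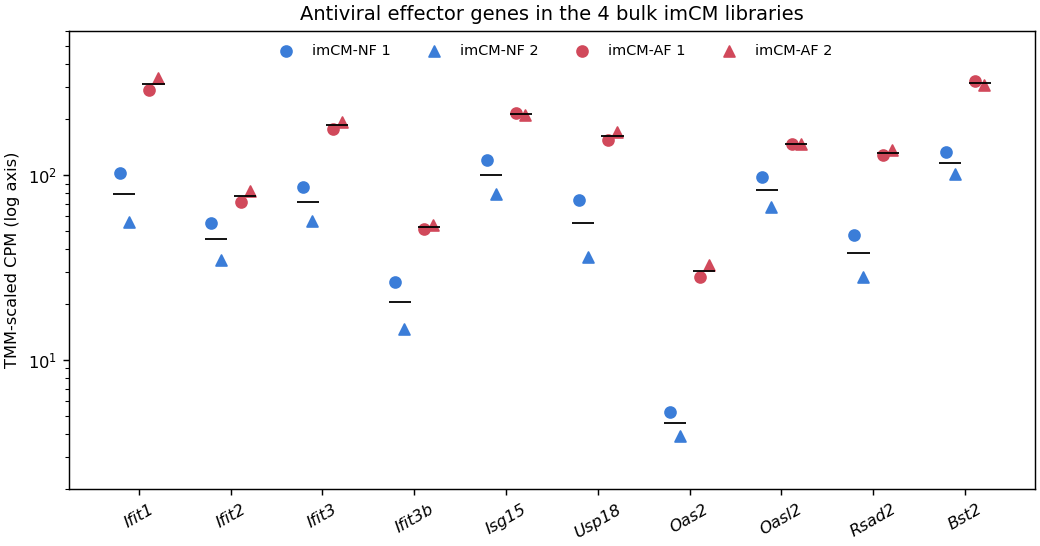
TMM-scaled CPM (log axis) of the 10 antiviral effector genes in the 4 bulk libraries. Symbols are single libraries, circles replicate 1 and triangles replicate 2, and the short line is the group mean. Both imCM-AF libraries sit above both imCM-NF libraries for every gene, and imCM-NF 1 sits above imCM-NF 2 for every gene.

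The groups did not overlap for 10 of 10 members, with imCM-AF higher, which was so for 32.1% of the 14041 genes tested. By the call rule of the study, an adjusted p under 0.05 with an absolute log2 fold change over 0.58, 10 of 10 were called higher, against 6.15% of all genes tested (864 genes) and 11.1% called in either direction. These counts follow from how the members were chosen and carry no weight of their own. The members' median log2 fold change was 1.41, beside a median of 0.001 over all tested genes. Summed over the members, the imCM-NF libraries held 750 and 477 CPM and the imCM-AF libraries 1590 and 1670 CPM.

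The wider antiviral programme was described with a list of 44 further genes, chosen like the members with earlier results known, of which 43 passed the expression filter of CPM over 1 in at least 2 libraries. In edgeR's quasi-likelihood test 30 of the 43 were called higher in imCM-AF, 3 were called lower and 10 were not called, against 6.15% of all tested genes called higher and 4.99% called lower. Since the list was chosen with earlier results known, this count and the adjusted p-values of its genes are a description and not independent evidence. The median log2 fold change was 0.95. A pair of Oas1 genes, which make 2-5A like Oas2, showed the largest values. Oas1g rose from 0.779 and 0.413 CPM to 7.66 and 5.70 CPM, or by 3.52 ± 0.36 on the log2 scale. It rested on 7 and 5 counts in the imCM-NF libraries and passed the expression filter only through the imCM-AF libraries, so its value is a description. Oas1a rose from 6.01 and 3.55 CPM to 33.4 and 30.9 CPM, or by 2.79 ± 0.18 on the log2 scale (edgeR adjusted p = 1.79e-08). Oas3, the largest sensor of the family, rose by 2.15 ± 0.23 on the log2 scale (edgeR adjusted p = 3.96e-06). Of the other Oas1 genes, named after their values were seen, Oas1c rose by 1.5 and Oas1b by 1.36 on the log2 scale (edgeR adjusted p = 7.65e-05 and 0.000264). These are close paralogs, so reads may be split among them.

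Ifi44, an interferon-induced gene, rose from 24.4 and 13.1 CPM to 77.6 and 95.5 CPM, or by 2.24 ± 0.18 on the log2 scale (edgeR adjusted p = 1.60e-07). Trim30a, a tripartite motif gene of mouse, rose by 1.93 ± 0.16 (edgeR adjusted p = 2.72e-07), and Mx2, a dynamin-like antiviral GTPase, by 1.76 ± 0.21 (edgeR adjusted p = 1.53e-05). The 3 with the smallest differences were not called. Samhd1, which depletes nucleotides, differed by -0.02 ± 0.10 on the log2 scale (edgeR adjusted p = 0.894). Ifitm3, which blocks virus entry, had 548 and 509 CPM against 583 and 493 CPM (log2 fold change 0.03 ± 0.12, edgeR adjusted p = 0.899), and Ube2l6, the conjugating enzyme of ISG15, had 0.12 ± 0.10 (edgeR adjusted p = 0.394). The 3 genes called lower were Ifitm1, Ifitm2 and Apobec3, named here after their values were seen, with log2 fold changes of -1.53, -0.67 and -0.59 (edgeR adjusted p = 0.00145, 0.000127 and 0.00565). The first pair encode membrane proteins of the same family as Ifitm3, and Apobec3 encodes a cytidine deaminase that restricts retroviruses.

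Of 21 genes of interferon signalling, 16 were tested. In edgeR's test 5 were called higher in imCM-AF, against 6.15% of all genes, and 0 were called lower, against 4.99%; 2 receptor subunits were lower at an adjusted p under 0.05 but under the fold threshold. Their median log2 fold change was 0.16. This list too was chosen with earlier results known, so its count and adjusted p-values are likewise a description. Among the transcription factors, Irf7 rose from 125 and 75.5 CPM to 353 and 346 CPM, or by 1.81 ± 0.16 on the log2 scale (edgeR adjusted p = 5.28e-07). Stat2 rose by 1.03 ± 0.13 (edgeR adjusted p = 2.48e-05) and Irf1 by 0.99 ± 0.10 (edgeR adjusted p = 2.16e-06). Irf3, Irf5 and Irf9, named after their values were seen, were not called, with log2 fold changes of 0.04, -0.08 and 0.45 (edgeR adjusted p = 0.784, 0.814 and 0.00297). Socs3, a feedback inhibitor of JAK kinases named after its value was seen, was also called higher (0.87 ± 0.11, edgeR adjusted p = 1.83e-05).

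The interferon genes on the signalling list were at or near the limit of the libraries, and no other interferon genes were looked at. Ifnb1, the gene of interferon beta, was under the expression filter with 0.445 and 0.413 CPM on neonatal and 0.638 and 0.587 CPM on adult fibroblasts. Ifna4, the only interferon alpha gene on the list, had 1 and 0 counts on neonatal and 2 and 3 counts on adult fibroblasts. Ifng, Ifnl2 and Ifnl3 were at 0 in all 4 libraries. The receptor genes Ifnar1 and Ifngr1 had log2 fold changes of -0.33 ± 0.10 and -0.46 ± 0.11 (edgeR adjusted p = 0.0163 and 0.0044), short of the fold threshold.

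**Figure D2:**
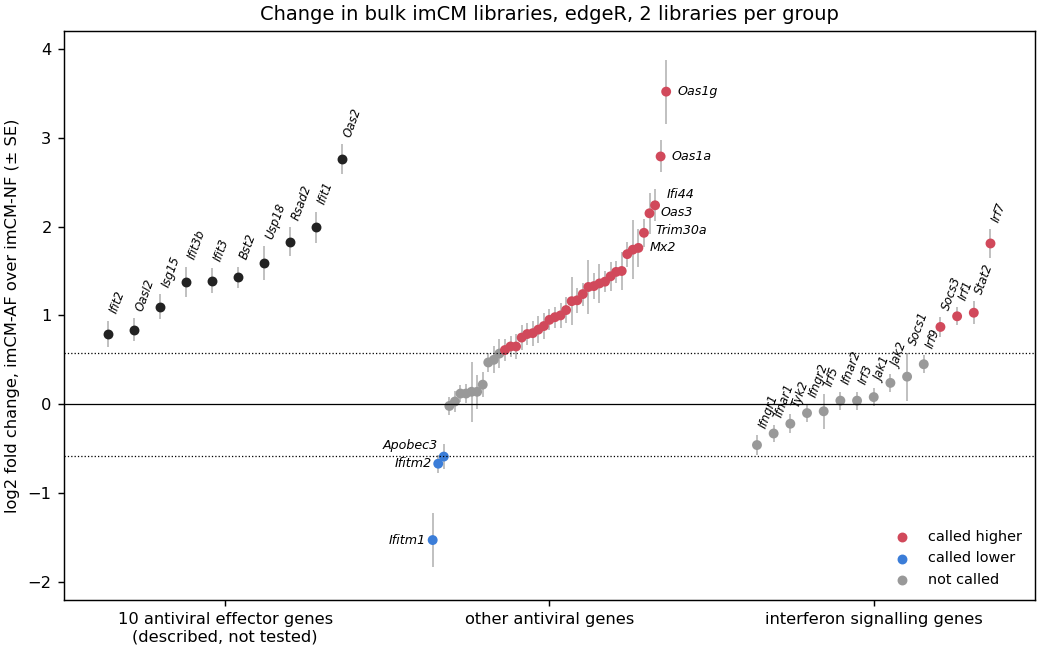
Log2 fold change of imCM-AF over imCM-NF with its SE (edgeR, n = 2 libraries per group) for the members, the other antiviral genes and the interferon signalling genes, ordered within each list. Dotted lines mark the fold threshold of 0.58 in either direction. Red genes were called higher, blue called lower and grey not called, and the members are black. Members run from 0.79 to 2.76, the other antiviral genes from -1.53 to 3.52 and the signalling genes from -0.46 to 1.81.

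Markers of other cells were read in the same libraries, since sorted imCMs can carry them. The summed cardiomyocyte markers were at 42400 and 31000 CPM on neonatal and 40100 and 44400 CPM on adult fibroblasts. Of these markers 2 of 10 were called higher in imCM-AF, against 6.15% of all tested genes. The summed fibroblast markers were lower in imCM-AF, 19600 and 21700 against 14600 and 11700 CPM, with 5 of 10 called lower, and the endothelial markers were at 943 and 977 against 638 and 603 CPM, with 4 of 8 called lower. Macrophage markers summed to 75.9 and 92.0 CPM on neonatal and 67.8 and 73.7 CPM on adult fibroblasts, and 2 of 9 tested were called lower. Among all tested genes 4.99% were called lower. Of 8 lymphocyte and dendritic markers, Cd3e, Cd3g, Nkg7 and Siglech were at 0 in every library, and Cd79a had 15, 23, 19 and 35 counts and Itgax 3, 13, 5 and 6 counts. The list summed to 2.00 and 2.97 CPM on neonatal and 2.28 and 3.44 CPM on adult fibroblasts. In bulk RNA, more expressing cells and more RNA per cell cannot be told apart, and the part of admixed cells in the members' difference was not tested.

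The single-cell chips give the same genes by well. Of 1409 wells on the cardiomyocytes chip that were not controls, 1259 were kept, and 987 of 1053 on the fibroblasts chip. Type names are read here by their likeness to the bulk titles, in which AF and NF stand for adult and neonatal fibroblasts and NCM for the cardiomyocytes. AFNCM and NFNCM wells came in 3 numbered pools each, and AF, NF, AF0 and NF0 wells in 2 each, as did NCM0. What the 0 stands for is not stated, and neither is whether numbered pools were separate cultures. Each chip is 1 library, so no test was made. Levels are summed UMIs (unique molecules) as CPM of the summed total, with exact Poisson intervals of 95% that cover counting error only. The chips shared 213 barcodes among their kept wells, since well barcodes come from a fixed set.

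On the cardiomyocytes chip the members were high in AFNCM wells and near 0 in NFNCM wells. Together they made up 398, 491 and 529 CPM in the 3 AFNCM pools, and 17.1, 14.1 and 20.4 CPM in the 3 NFNCM pools. Ifit1 had 131, 161 and 172 CPM in AFNCM and 2.48, 1.37 and 2.42 CPM in NFNCM. Usp18 had 59.6, 84.4 and 86.1 CPM against 1.38, 0.228 and 1.88 CPM, and Ifit3 had 62.9, 54.5 and 80.2 CPM against 0.551, 0 and 0.269 CPM. For these 3 genes the lowest AFNCM pool was many times the highest NFNCM pool.

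Summed over pools, the ratio of AFNCM to NFNCM was 77.4 for Ifit1 (interval 51.9 to 121, from 2070 and 24 UMIs) and 71.6 for Usp18 (41.7 to 135, from 1037 and 13 UMIs). Ifit3 rested on 866 against 3 UMIs, a ratio of 259 with an interval from 88.4 to 1260. Ratios at the other end were 3.66 for Ifit2 (2.71 to 5.02), 10.3 for Bst2 (7.90 to 13.6) and 14.3 for Oasl2 (9.56 to 22.4). Rsad2 had a ratio of 75.4 (29.2 to 278), Ifit3b of 168 (46.2 to 1390) and Isg15 of 20.3 (11.9 to 37.6). Oas2, which differed most in bulk, was barely seen here, with 23 UMIs in AFNCM and 1 in NFNCM, a ratio of 20.6 with an interval from 3.35 to 851. All 9 members with a mean of at least 1 CPM over the pools were higher in each AFNCM pool than in any NFNCM pool and over 2-fold higher in sum, against 7.10% of 14364 genes, and Oas2 fell short of that mean. Some members, such as Ifit3 and Rsad2, passed that mean only through the AFNCM pools. The members were also chosen with earlier results known, so this count is a description and carries no weight of its own. The members' median log2 ratio was 5.27, and leaving out any 1 pool gave 4.81 to 5.86.

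NCM0 wells, of the same chip, were low as well, with 2.80 CPM of members in NCM0_1 and 65.2 CPM in NCM0_2. The second value came mostly from 1 well. It held 82 of the 199 member UMIs of NCM0_2, and for Ifit1 a single well held 72 of 91 UMIs. Without the top well, Ifit1 of NCM0_2 went from 29.8 to 6.34 CPM. Negative control wells held no UMI of any member on either chip, out of 1465 and 3587 UMIs, but at such totals the upper limits were 2520 and 1030 CPM, above the level of any Type.

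**Figure D3:**
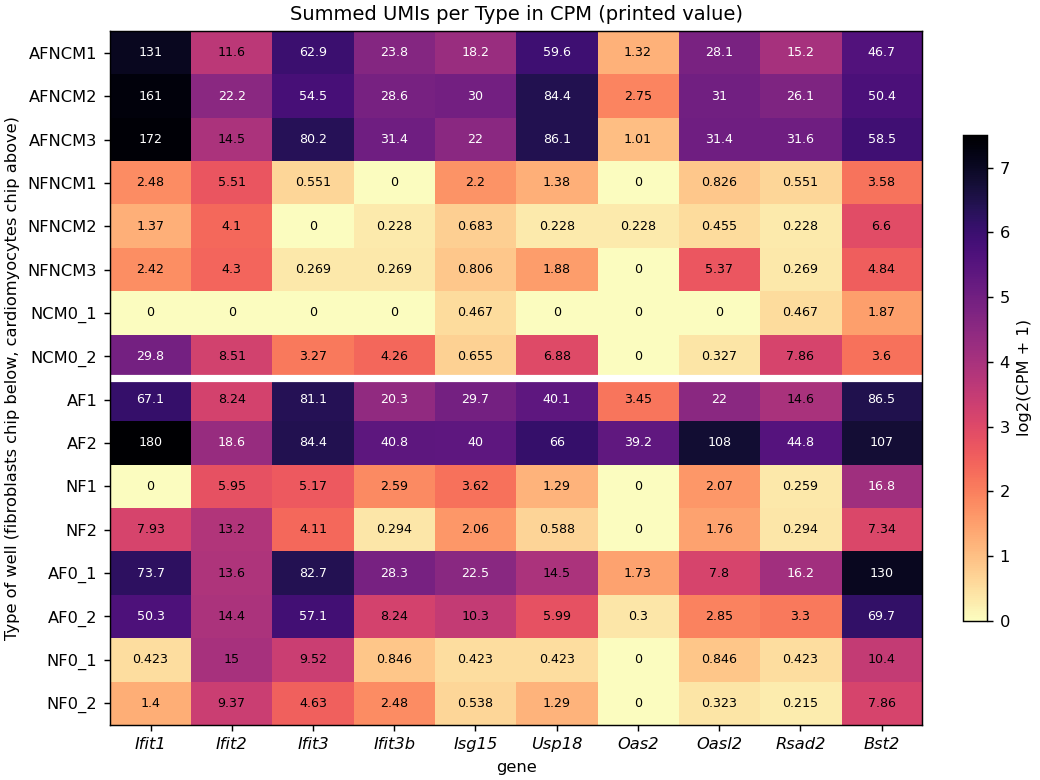
Summed UMIs of each member in CPM, printed in each field, for 16 Types of wells, with colour as log2(CPM + 1). The 8 upper rows are from the cardiomyocytes chip and the 8 lower rows from the fibroblasts chip. Rows whose Type starts with AF are dark for most genes, from 222 to 729 CPM over the members, while rows of NF, NF0, NFNCM and NCM0 lie between 2.80 and 65.2 CPM.

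On the fibroblasts chip the members were again higher in the wells named for adult fibroblasts. The members together made up 373 and 729 CPM in AF1 and AF2, and 37.8 and 37.6 CPM in NF1 and NF2. Ifit1 had 67.1 and 180 CPM against 0 and 7.93 CPM, and 25 of the 27 NF UMIs came from 1 well. Bst2 had 86.5 and 107 CPM in AF and 16.8 and 7.34 CPM in NF, a ratio of 7.78 (6.27 to 9.77). Usp18 had a ratio of 54.9 (26.4 to 137) and Rsad2 of 107 (29.4 to 887, from 302 against 2 UMIs).

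Ifit2 did not follow the others in fibroblasts. It had 8.24 and 18.6 CPM in AF and 5.95 and 13.2 CPM in NF, so the pools overlapped, and 64 of the 94 UMIs of AF2 lay in 1 well. Of 10 members, 9 were higher in every AF pool than in any NF pool and over 2-fold in sum, against 14.0% of 14277 genes, and Ifit2 was the exception. Some members, such as Oas2 and Rsad2, passed the mean of 1 CPM only through the AF pools, so this count too is a description. Oas2 had no UMI in NF and 3.45 and 39.2 CPM in AF1 and AF2. With a floor of 3 UMIs put in for all NF wells, the ratio of AF to NF was 51.0, which is not a lower limit. The exact lower limit of the ratio was 41.1, for counting error only. Both values include 1 well that held 159 of the 198 UMIs of AF2. Without that well AF2 stood at 7.91 CPM. The median log2 ratio of the members was 4.69, and 3.63 without pool AF2.

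Wells named AF0 also held the members. They made up 391 and 222 CPM in AF0_1 and AF0_2, against 38.3 and 28.1 CPM in NF0_1 and NF0_2. Of the 9 members with a mean of at least 1 CPM, 8 were higher in both AF0 pools and over 2-fold in sum, against 12.8% of 14493 genes. The exception was Ifit2, with 13.6 and 14.4 CPM in AF0 and 15.0 and 9.37 CPM in NF0, a ratio of 1.25 (0.991 to 1.58). Some members, such as Isg15 and Rsad2, passed that mean only through the AF0 pools, so the count is again a description. Oas2 was under the mean, with 8 UMIs in AF0 and 0 in NF0.

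Summed markers of other cells differed among the Types of the fibroblasts chip, and their part in the members' levels was not tested. Cardiomyocyte markers summed to 590 CPM in AF, 3720 in NF, 243 in AF0 and 4930 in NF0, and macrophage markers to 376, 341, 112 and 1180 CPM. In the wells with more fibroblast than cardiomyocyte markers, the members stood at 553 CPM in AF, 38.3 in NF, 281 in AF0 and 33.5 in NF0.

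By well, the members were spread over many AFNCM wells rather than a few. The median AFNCM well held 3.05 member UMIs per 10000, with quartiles of 1.02 and 6.15 and a maximum of 49.7, and the fullest well gave 3.73% of all member UMIs. In NFNCM the median was 0, and 424 of 511 wells (83.0%) held no member UMI, against 75 of 496 (15.1%) in AFNCM. AFNCM1 stood lower than its fellow pools, with a median of 1.28 against 3.52 and 3.81. Median depth was alike, 18533 UMIs in AFNCM and 17840 in NFNCM. Among fibroblasts the median well held 3.38 member UMIs per 10000 in AF and 2.22 in AF0, and 0 in NF and NF0. There depth differed, with medians of 30469 UMIs in AF, 17323 in NF, 43011 in AF0 and 34814 in NF0.

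At a fixed depth of 5000 UMIs per well, reached by 419 AFNCM and 398 NFNCM wells, a UMI of any member was found in 72.8% of AFNCM wells (exact binomial interval 68.3 to 77.0%) and 5.28% of NFNCM wells (3.30 to 7.95%). It was found in 72.9% of AF wells (66.5 to 78.7%), 63.5% of AF0 wells (56.1 to 70.5%), 12.5% of NF wells (8.47 to 17.6%) and 10.6% of NF0 wells (7.39 to 14.7%). At least 3 members were found in 18.4% of AFNCM wells (14.8 to 22.4%) and in 0 of 398 NFNCM wells, which allows a share of up to 0.923% of wells with such UMIs by the exact interval. Ifit1 alone was found in 31.0% of AFNCM wells (26.6 to 35.7%) at this depth and in 45.0% without thinning, against 0.754% (0.156 to 2.19%) and 1.96% of NFNCM wells. No cell type known to lack these genes was on the chips, so the part of free RNA in these shares was not tested.

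**Figure D4:**
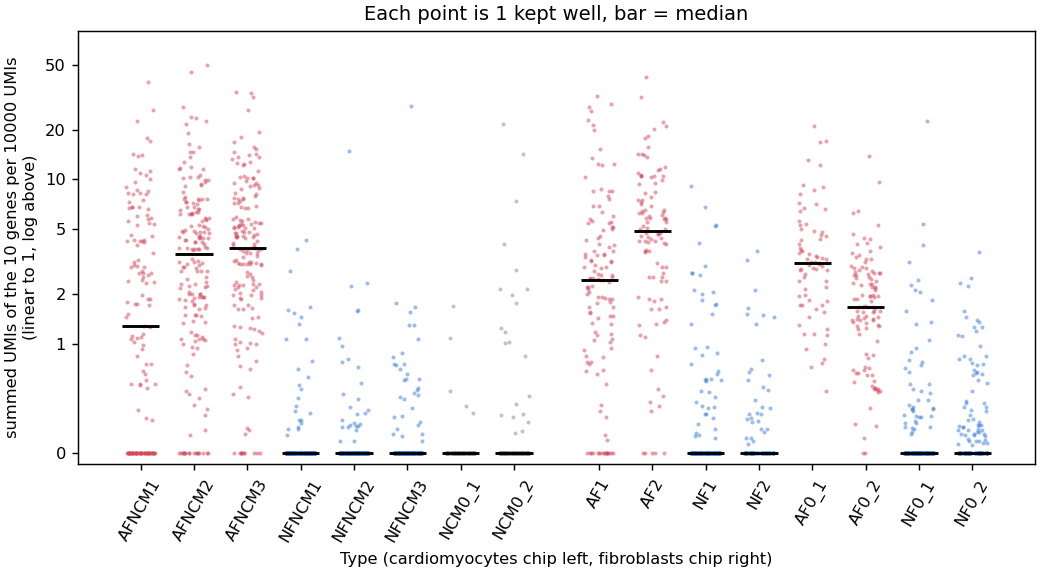
Summed UMIs of the 10 members per 10000 UMIs in each kept well (linear to 1, log above), by Type, with the median as a bar. Red points are Types that start with AF, blue points Types that start with NF and grey points NCM0. Medians lie from 1.28 to 4.86 in the AF and AFNCM and AF0 Types, and at 0 in all others.

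The members were only loosely tied within a group of wells. Among 496 AFNCM wells the pairwise Pearson correlation of their log-normalised values had a median of 0.0787 and ran from -0.0441 to 0.407, as a description of sparse counts from 1 library. At 5000 UMIs, Ifit3 was found in 23.8% of the 130 AFNCM wells with Ifit1 and in 12.5% of the 289 without it, while Bst2 was found in 22.3% and 24.9%. Across the 16 Types the picture was tighter. Each member's log2(CPM + 1) was set against the mean of the other 9, and Pearson's r ran from 0.652 for Ifit2 and 0.760 for Oas2 to 0.966 for Ifit3b. The points share chips and depth, so r is a description. The members were also chosen for their higher level with adult fibroblasts. Their centred mean was 0.69 or more in every Type that starts with AF and -0.65 or less in all others. A high r can follow from this split alone, for members and other genes alike, and co-variation beyond it was not tested. Among 10561 other genes with a mean of at least 5 CPM, the 5 most alike by the same measure were Lcn2 (r = 0.963), Rnf213 (0.961), Gbp3 (0.960), Oas1g (0.956) and Ifi44 (0.955). Lcn2 encodes an iron-binding lipocalin, Rnf213 a large ubiquitin ligase and Gbp3 a guanylate-binding protein.

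Fibroblast-marked wells were not the only ones with a high level on the cardiomyocytes chip. In the 397 AFNCM wells whose summed cardiomyocyte markers exceeded the fibroblast markers, the members stood at 456 CPM (443 to 469), and in the 99 wells with more fibroblast markers at 580 CPM (553 to 608). The matching NFNCM values were 15.7 CPM (13.4 to 18.4, 453 wells) and 24.6 CPM (17.7 to 33.2, 57 wells). Single members differed in direction between the cardiomyocyte-marked and fibroblast-marked AFNCM wells. Ifit1 stood at 170 CPM (162 to 178) in the former and 117 CPM (105 to 130) in the latter. Usp18 was alike, at 79.5 and 78.6 CPM, while Oasl2 stood at 16.3 CPM (13.9 to 19.0) and 79.3 CPM (69.4 to 90.1). Within 2-fold of equal marker sums lay 53 AFNCM and 40 NFNCM wells. Fibroblast markers summed to 3280 CPM in AFNCM and 1750 CPM in NFNCM, endothelial markers to 342 and 79.2 CPM and macrophage markers to 534 and 932 CPM. Without the 74 AFNCM and 49 NFNCM wells that held a UMI of Ptprc, Csf1r or Cd68, the median log2 ratio of the members was 5.33.

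The other antiviral genes were also read on the chips. Of 44, 40 passed the mean of 1 CPM on the cardiomyocytes chip, and 34 of these were higher in every AFNCM pool and over 2-fold in sum, against 7.10% of all genes. On the fibroblasts chip the count was 29 of 38 for AF over NF, against 14.0%, and 26 of 35 for AF0 over NF0, against 12.8%. The list was chosen with earlier results known, and some genes passed the mean only through the adult pools, such as Oas1a and Mx2 on the cardiomyocytes chip. These counts are therefore a description and not independent evidence. Ifitm3, at nearly equal levels in the bulk groups, had 2350 CPM in AFNCM and 314 CPM in NFNCM wells, from 30775 and 3683 UMIs. The 3 genes called lower in bulk were higher in AFNCM than in NFNCM wells in sum, with 1.61 and 0.341 CPM for Ifitm1, 359 and 208 CPM for Ifitm2 and 6.88 and 1.11 CPM for Apobec3. Ifitm1 rested on 21 and 4 UMIs and fell short of the mean of 1 CPM. Only Apobec3 was higher in every AFNCM pool and over 2-fold in sum. Of the signalling genes, 6 of 16 that passed the mean were higher in every AFNCM pool and over 2-fold in sum, against 7.10% of all genes. On the fibroblasts chip the count was 8 of 16 for AF over NF, against 14.0%, and 5 of 16 for AF0 over NF0, against 12.8%. These counts are likewise a description. Irf7 had 41.4 and 1.36 CPM in AFNCM and NFNCM and Stat2 25.8 and 5.71 CPM, whereas Irf1 had 18.6 and 21.2 CPM.

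**Figure D5:**
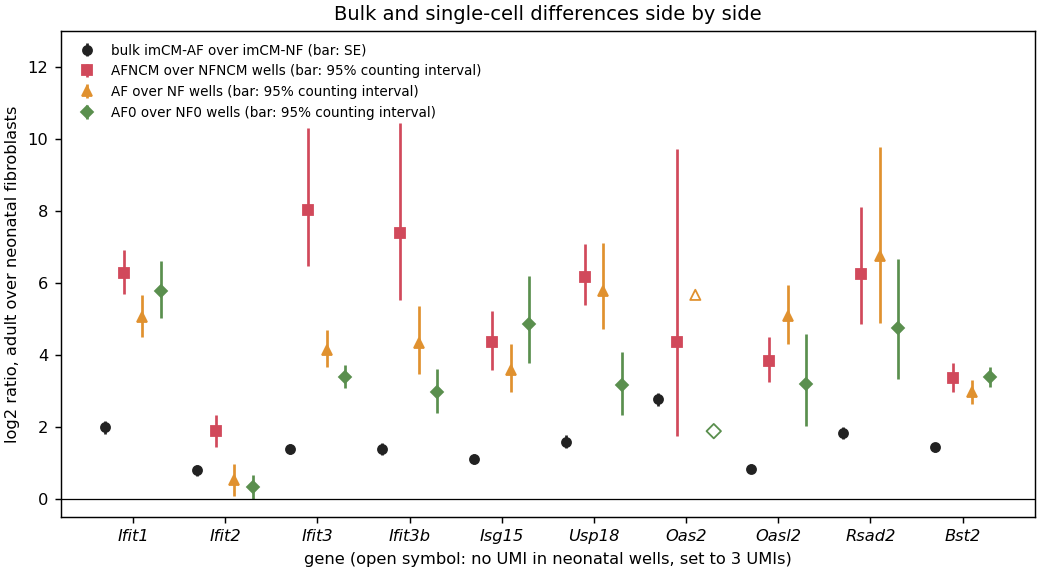
Log2 ratio of adult over neonatal fibroblast groups for each member in bulk imCMs (black, bar SE), AFNCM over NFNCM wells (red squares), AF over NF wells (orange triangles) and AF0 over NF0 wells (green diamonds), with 95% counting intervals. Open symbols had no UMI in the neonatal wells and stand at the value for 3 UMIs. The AFNCM over NFNCM ratio, from 1.87 for Ifit2 to 8.02 for Ifit3, exceeds the bulk value, from 0.79 to 2.76, for each member.

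Bulk and single-cell values thus pointed the same way for all members on the cardiomyocytes chip, with unlike sizes. The bulk log2 fold change of Ifit1 was 1.99 ± 0.18 and its log2 ratio between AFNCM and NFNCM wells was 6.27. For Oasl2 the values were 0.84 ± 0.13 and 3.84, and for Bst2 1.43 ± 0.12 and 3.36. In bulk imCM-NF, Ifit1 stood at 103 and 55.7 CPM, while it was close to 0 in the NFNCM wells of the chip. The bulk libraries count reads over whole transcripts and the chips count molecules, and the source of the difference was not tested.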

How the data were processed

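Per the labels and the study's methods, the authors aligned bulk reads to mm10 with subread and deposited raw read counts per Entrez gene from featureCounts. The submitters' processing notes list STAR 2.5.2b and Subread 1.4.6-p1 without a role. For the nanowell chips, aligned to mm10 with STAR, they deposited UMI counts per well and a well report whose Type names and read pair counts were used here. Gene names came from RefSeq and GENCODE tables. Identifiers without a symbol, 1904 of 27179, held 3.52% of bulk counts and stayed in the fit.

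Bulk counts were TMM-scaled, filtered at CPM over 1 in at least 2 libraries and tested with edgeR 4.0.16 (quasi-likelihood, Benjamini-Hochberg) in R 4.3.3, over 14041 genes and the 4 libraries. The model was checked on simulated data. A well entered the sums if it showed 500 genes or more, had over 50% of its read pairs aligned and had UMIs within 2 SD of the chip's mean, which in effect set only upper limits of 94371 and 163119. Control wells and mitochondrial genes were left out, and no doublet caller was run. UMIs were summed per Type. Ratios have exact conditional intervals, levels exact Poisson intervals and shares exact Clopper-Pearson intervals, all at 95% and for counting error only (scipy 1.17.1).

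The members and the gene lists were chosen with earlier results of these data known. Named were all members, the 6 other antiviral genes called with the largest absolute log2 fold change and the 3 with the smallest, the 4 signalling genes called with the largest, and the 5 genes most alike over Types. A signalling gene and a marker gene stay in the counts but are not reported here by name or drawn. Alternatives were DESeq2 1.42.0, limma-voom 3.58.1, other scalings, filters and thresholds, a replicate block, and each library or pool left out.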

Additional observations from a re-analysis of the deposited data

How the results depend on the processing

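The members' log2 fold changes were positive under all 12 bulk alternatives (120 of 120 values), and 119 also stayed past the threshold. The exception was Ifit2 at 0.49 without imCM-NF replicate 2. Leaving out 1 library at a time, 9 to 10 members, 25 to 34 other antiviral genes and 5 to 5 signalling genes were called. At an absolute log2 fold change over 1, 8 members, 21 other antiviral genes (20 higher, 1 lower) and 2 signalling genes were called. By adjusted p alone 8 signalling genes (6 higher, 2 lower) were called. These shifts follow from the threshold. Over all genes, the 1564 calls went down to 879 when imCM-NF replicate 2 was left out and to 988 when imCM-AF replicate 2 was; the cause was not tested. Replicate numbers are not said to mark a shared batch, and the deviations of equal numbers correlated at -0.131. The replicate block called 10 members, 34 other antiviral and 5 signalling genes. The crossed replicate block, chosen after seeing the data, called 10, 33 and 5. On the chips, thinning to 5000 UMIs lowered the members' median log2 ratio from 5.27 to 4.25 for cardiomyocytes and from 4.69 to 3.35 for fibroblasts, with 4 and 2 members then at the floor of 3 UMIs. Leaving out 1 pool at a time, also added after seeing the data, gave 4.81 to 5.86 and 3.63 to 5.18, the lowest without AF2. Values without the fullest well were likewise chosen after seeing the data. With 2 libraries per group and 1 library per chip, precision is limited, and Oas2 rests on few UMIs on the cardiomyocytes chip.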
